A study of Mus musculus with 10 samples.

Results

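Expression of 43 genes that organise or modify chromatin was followed in CD4+ T cells from the spleen of WT mice and Satb1 conditional knockouts. The genes were taken by symbol from a fixed list that names Satb1, CTCF and cohesin, remodelling enzymes, histone modifiers, and enzymes that write or erase DNA methylation. All 43 were found among the 48321 symbols of the count tables, and all 43 passed the filter on low counts. Cells came from spleens of young adult C57BL/6 mice of mixed sexes that carry a GFP reporter of Foxp3, so that GFP was read here as FoxP3, and they were sorted by GFP and CD25. WT mice gave FoxP3+CD25+ cells, the bona fide Tregs, and FoxP3-CD25- cells, the non-Tregs. Satb1 F/F:Thpok-cre mice (KO) gave both of these and also FoxP3+CD25- cells, a population that has no WT counterpart here. The Thpok-cre driver acts in cells of the CD4 lineage before FoxP3 is expressed, and the labels do not say how complete the deletion is. Each of the 5 groups has 2 libraries, 10 in all, and equal numbers within a genotype were read as 1 mouse, an identity that the labels imply without stating it. With 2 libraries against 2, an exact permutation test cannot give a p below 0.333, so the tests below come from a fit across all genes that shares 1 estimate of the spread.

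The libraries held 6094952 to 12410064 reads counted on genes, and a level of 3 counts, taken as the floor, is 0.242 to 0.492 CPM (counts scaled to library size, here before TMM factors and elsewhere with them). The sort labels held in the data: the summed level of 6 Treg genes (Foxp3, Il2ra, Ctla4, Ikzf2, Tnfrsf18 and Lrrc32) was 3046 to 3726 CPM in FoxP3+CD25+ libraries, 529 and 682 CPM in FoxP3+CD25- libraries, and 169 to 355 CPM in FoxP3-CD25- libraries. Of other blood cells, Ms4a1, Cd14 and Ncr1 were at 0.763 CPM or less and Lyz2 at 1.53 CPM or less in all 10 libraries. Csf1r (myeloid) was at 12.5 to 17.6 CPM and Cd8b1 (CD8 T cell) at 8.24 to 14.1 CPM. Cd79b (B cell) was at 14.4 to 19.1 CPM in the 4 FoxP3+CD25+ libraries and at 0.826 to 5.13 CPM in the other 6, and was called higher in FoxP3+CD25+ than in FoxP3-CD25- cells of both genotypes by edgeR. Its part in the results on these populations was not tested. The libraries of WT replicate 1 held Xist and no counts from chromosome Y, and the other 8 libraries the reverse, so 1 of the 2 WT mice differs from the rest by sex. In bulk libraries, fewer cells that express a gene and less RNA per cell cannot be told apart.

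DNA in a T cell nucleus is folded into loops by the cohesin ring, which CTCF halts at its binding sites and Wapl releases. SATB1 is a T lineage protein that binds AT-rich DNA and tethers distant genes, and it recruits remodellers and histone deacetylases of the NuRD complex. SWI/SNF enzymes slide nucleosomes, histone acetyltransferases and MLL-type methyltransferases mark active genes, and Polycomb repressive complex 2 with its catalytic subunits EZH1 and EZH2 marks silent ones. DNMT enzymes methylate cytosine and TET enzymes oxidise the methyl group. In Tregs, TET activity and loss of DNA methylation at the Foxp3 locus are known for keeping FoxP3 stable.

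Between the sorted populations or genotypes, 5 of the 43 genes passed the test in at least 1 comparison: Satb1, Tet1, Smarca2, Ezh2 and Hdac9. Their promoters are shown because these are the members whose mRNA differed, and because their windows differ widely in CG dinucleotides, the sites that the DNMT and TET members act on. Each line is the 250 bases before the RefSeq start that lies furthest upstream, 5′ to 3′, with CG dinucleotides in capitals (GRCm38.p6).
Satb1: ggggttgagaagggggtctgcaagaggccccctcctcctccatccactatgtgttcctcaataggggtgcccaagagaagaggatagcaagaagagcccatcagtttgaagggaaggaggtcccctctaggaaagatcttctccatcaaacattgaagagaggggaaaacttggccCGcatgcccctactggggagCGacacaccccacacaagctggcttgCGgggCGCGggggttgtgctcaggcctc
Tet1: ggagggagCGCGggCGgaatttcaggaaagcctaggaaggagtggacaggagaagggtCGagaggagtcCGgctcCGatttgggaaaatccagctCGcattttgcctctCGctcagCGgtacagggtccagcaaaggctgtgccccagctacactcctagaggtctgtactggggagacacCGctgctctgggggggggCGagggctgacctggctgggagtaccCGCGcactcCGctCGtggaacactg
Smarca2: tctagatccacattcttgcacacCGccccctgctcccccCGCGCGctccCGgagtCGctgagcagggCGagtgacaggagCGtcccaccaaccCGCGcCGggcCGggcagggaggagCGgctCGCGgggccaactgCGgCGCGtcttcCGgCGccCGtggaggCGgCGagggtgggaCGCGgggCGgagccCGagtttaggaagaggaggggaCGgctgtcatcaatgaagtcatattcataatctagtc
Ezh2: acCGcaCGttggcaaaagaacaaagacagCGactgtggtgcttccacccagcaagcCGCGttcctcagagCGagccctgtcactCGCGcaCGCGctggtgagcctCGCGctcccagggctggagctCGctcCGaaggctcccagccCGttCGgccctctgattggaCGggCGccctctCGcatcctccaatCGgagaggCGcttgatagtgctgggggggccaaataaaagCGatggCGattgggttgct
Hdac9: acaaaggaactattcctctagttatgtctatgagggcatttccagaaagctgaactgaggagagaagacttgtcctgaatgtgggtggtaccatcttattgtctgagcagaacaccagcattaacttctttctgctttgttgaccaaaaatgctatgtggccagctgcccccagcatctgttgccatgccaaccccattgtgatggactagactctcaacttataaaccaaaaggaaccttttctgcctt

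The Satb1 window lies at chr17:51833291-51833540 on the minus strand and holds 5 CG dinucleotides, and the Tet1 window lies at chr10:62887325-62887574 on the minus strand and holds 15. The Smarca2 window (chr19:26604910-26605159 on the plus strand) holds 28 and the Ezh2 window (chr6:47595031-47595280 on the minus strand) holds 23. The Hdac9 window (chr12:34917096-34917345 on the minus strand) holds 0. The 5 genes therefore span from no CG to more than the median of the members. RefSeq promoters were matched for 35 of the 43 members, with a median of 24 CG dinucleotides (0 to 51), against a median of 6 over the 27025 genes of the table. That table takes in genes that did not pass the filter on low counts, which all members did. The CG medians and the motif shares below thus compare unlike sets. No such values were computed over expressed genes alone. A match to TTTGGCGC, TTTCGCGC or TTTCCCGC, sequences bound by E2F factors, on either strand was found in 2 of the 35 (5.71%), Stag1 and Suz12, against 1.59% of all promoters. A match to the Ets sequence CCGGAAGT was found in 1 (2.86%), Mta2, against 2.92%. None of the 5 promoters printed above holds either motif. Satb1 has 5 starts in RefSeq and Hdac9 has 2, and gene counts do not tell which start was used. In GENCODE M21, used for exon lengths, Tet1 starts at 62908996 and Ezh2 at 47595341, so that both windows lie inside the gene. Smarca2 starts there at 26605050, within its window.

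Levels per kb of exon, a rough way to compare genes with each other, spread widely over the members. The length used is that of all annotated exons of a gene merged, which can exceed that of the transcript expressed. The order of the genes and the size of ratios between paralogues therefore depend in part on the annotation. Chd3 and Chd4, the ATPases of NuRD, were the highest at 164 and 116 CPM per kb (means of 10 libraries). Arid1a, the DNA-binding subunit of one form of SWI/SNF, followed at 79.6 CPM per kb, and Smarcb1 was the lowest SWI/SNF gene at 7.73. Among organisers, Rad21, the cohesin subunit cut to open the ring, was highest at 63.1 CPM per kb and Ctcf was at 61.7. Stag1 was the lowest organiser at 11.5 CPM per kb, and its paralogue Stag2 was 3.37 to 3.84 times higher in every library. Satb1 itself was at place 15 of the 43 genes, with 38.8 CPM per kb.

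In the remaining roles, whose members modify histones or DNA, no gene reached the level of Chd4. Kat2b was the highest acetyltransferase at 36.3 CPM per kb and Crebbp the lowest at 25.5. Kmt2d, at 68.7 CPM per kb, was the highest MLL-type methyltransferase and Kmt2c the lowest at 31.1. Of Polycomb genes, Suz12 was highest at 38.7 and Ezh2 lowest at 8.74 CPM per kb. In DNA methylation, Dnmt1, the maintenance enzyme, was highest at 23.9, and Uhrf1, which brings DNMT1 to newly copied DNA, lowest at 2.38 CPM per kb. Hdac9, a class IIa histone deacetylase, was the lowest of all 43 at 0.356 CPM per kb.

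**Figure D1:**
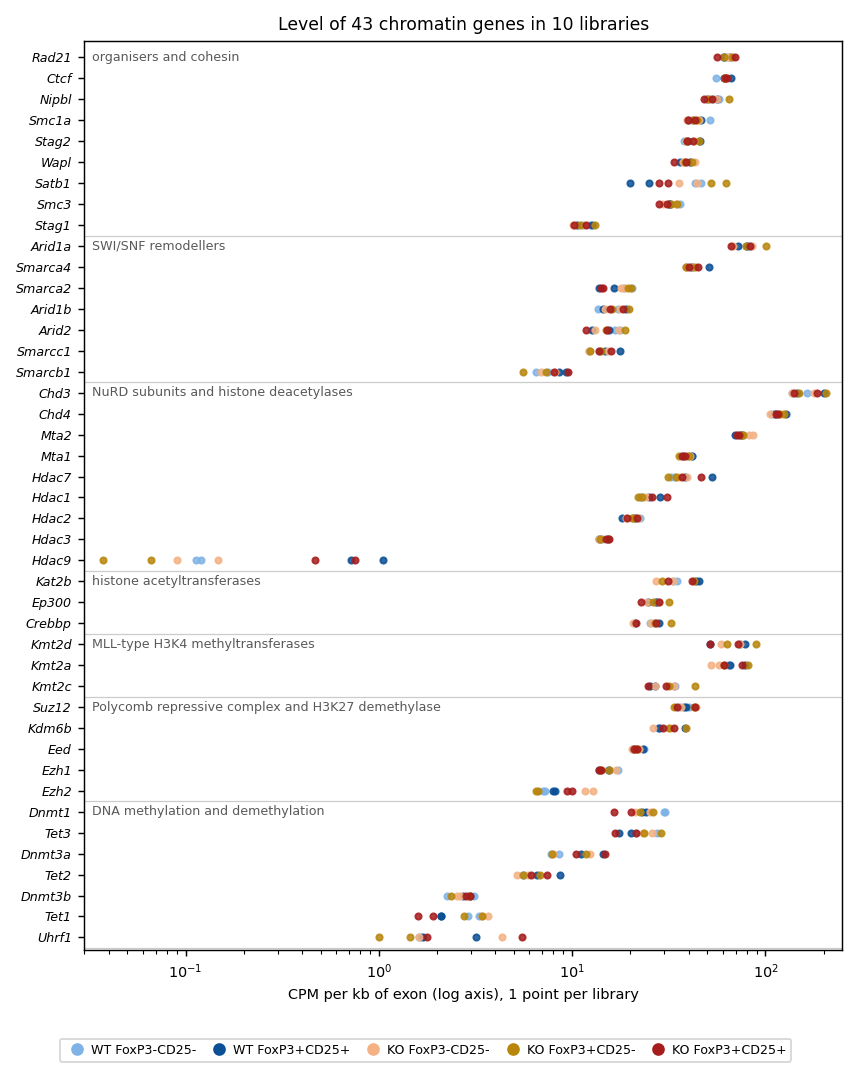
Level of each member in CPM per kb of exon (log axis) in the 10 libraries, grouped by role, with 1 point per library coloured by sorted group. Points of most genes overlap, while Hdac9 separates FoxP3+CD25+ libraries from the rest and Satb1 runs from 19.9 to 62.3 CPM per kb.

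The range of each member was taken over the 10 libraries. In 39 of the 43 genes the highest library was under 2 times the lowest. The same share over all genes tested was not computed, so this count is not read as a trait of the members. Hdac3, the deacetylase of the NCoR complex, was the most even, with a highest library 1.12 times the lowest. Only 3 members varied more than 3 times: Satb1 (3.13 times), Uhrf1 (5.51 times) and Hdac9 (28.3 times), and Tet1 varied 2.31 times.

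Satb1, the gene targeted in the KO mice, was detected in every library. In WT FoxP3+CD25+ cells it was at 379 and 478 CPM, and in WT FoxP3-CD25- cells at 818 and 881 CPM. In libraries labelled KO it was at 598 and 534 CPM in FoxP3+CD25+ cells, 841 and 682 CPM in FoxP3-CD25- cells, and 1186 and 993 CPM in FoxP3+CD25- cells. The count of Satb1 was thus no lower in libraries labelled KO than in WT libraries of FoxP3+CD25+ cells, while among non-Tregs the KO values lay on both sides of the lower WT value. Gene counts do not resolve exons, so a transcript that lacks the deleted part is counted like an intact one, and these counts do not check the deletion. The values below are therefore levels of Satb1 RNA and not of SATB1 protein.

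In WT mice, which of these genes distinguish Tregs from non-Tregs was asked first. Of the 43 genes, 3 passed an FDR of 0.05 in edgeR's quasi-likelihood test, against a background of 10.9% of all 13796 genes tested. The median log2 change of the members was 0.02, beside -0.02 over all genes. Satb1 was lower and Tet1 was lower in FoxP3+CD25+ cells, while Hdac9 was higher. Satb1 fell from 849 ± 44.9 to 428 ± 69.6 CPM (SD, n = 2), a log2 change (log2 of the ratio of group means as fitted) of -0.99 (SE 0.15, FDR 0.00178). The WT libraries of both populations did not overlap for this gene, which also held for 47% of all genes tested.

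Hdac9 was at 15.5 and 10.5 CPM in WT FoxP3+CD25+ libraries (121 and 89 counts) and at 1.66 and 1.75 CPM in WT FoxP3-CD25- libraries (20 and 17 counts). This is a log2 change of 2.92 (SE 0.36, FDR 0.000398), the most extreme of any member, in the member with the fewest counts. Tet1, a TET enzyme that oxidises methylated cytosine, was at 32.3 and 32.5 CPM in FoxP3+CD25+ and at 44.5 and 51.1 CPM in FoxP3-CD25- libraries. Its log2 change was -0.56 (SE 0.15, FDR 0.0325), and the FDR ran from 0.0569 to 0.217 without any 1 of these 4 libraries and was 0.0584 by DESeq2. The other TET genes did not pass this test: Tet2 had a log2 change of 0.44 (SE 0.16, FDR 0.115) and Tet3 of -0.38, so that the ratio of Tet2 to Tet1 per kb was 4.12 and 3.13 in WT FoxP3+CD25+ libraries and 1.94 and 1.70 in WT FoxP3-CD25- libraries.

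**Figure D2:**
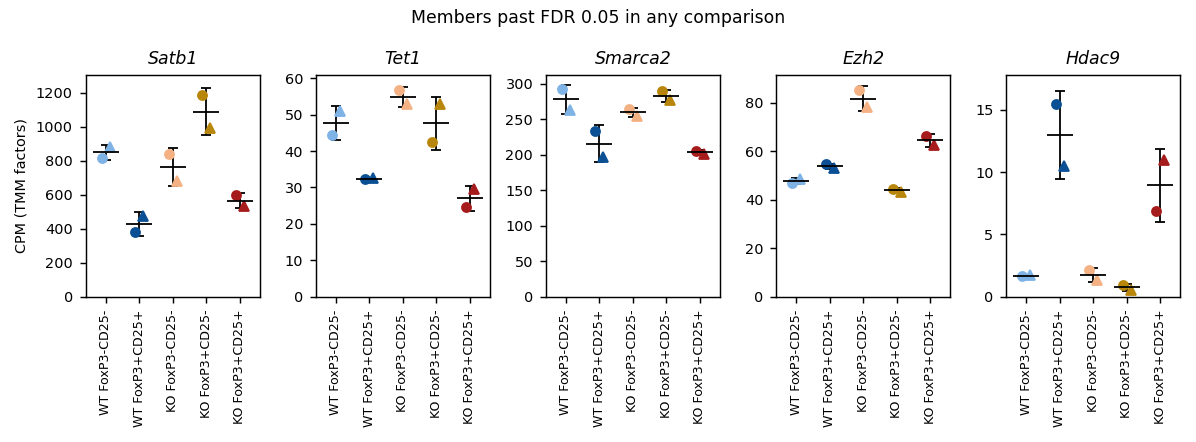
CPM of the 5 members past FDR 0.05 in any comparison, in each library (circle for replicate 1, triangle for replicate 2), with the group mean as a bar and the SD of 2 libraries as whiskers. Satb1, Tet1 and Smarca2 are lower in FoxP3+CD25+ cells of both genotypes, Hdac9 is higher there, and Ezh2 is highest in KO FoxP3-CD25- cells at 78.1 and 85.4 CPM.

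When each mouse was entered as a block, so that populations were compared within a mouse, 13 members passed in WT mice, against 19.1% of all genes. The 10 genes added were, on the higher side in FoxP3+CD25+ cells, Smarcb1 and Smarcc1 (core SWI/SNF subunits), Hdac7 (a class IIa deacetylase), Kat2b, Tet2 and Dnmt3a. On the lower side they were Smarca2 (an ATPase of SWI/SNF), Kmt2c, Tet3 and Dnmt1. Dnmt3a, a de novo DNA methyltransferase, had the largest change of the 10, at 240 and 184 CPM in FoxP3+CD25+ against 142 and 129 CPM in FoxP3-CD25- libraries (log2 change 0.64, SE 0.09, FDR 0.000300 with the mouse as a block in edgeR). Dnmt1, the maintenance enzyme, was on the opposite side, at 179 and 170 against 222 and 219 CPM (log2 change -0.34, FDR 0.00772 in the same fit).

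In KO mice the same pair of populations gave 2 members past the threshold, against 6.34% of all genes. Tet1 fell again, from 56.7 and 52.8 CPM in KO FoxP3-CD25- to 24.6 and 29.5 CPM in KO FoxP3+CD25+ libraries, a log2 change of -1.01 (SE 0.15, FDR 0.00262 by edgeR). Hdac9 rose from 2.15 and 1.32 CPM to 6.87 and 11.01 CPM, a log2 change of 2.40 (SE 0.42, FDR 0.00619). Hdac9 did not pass without KO FoxP3+CD25+ replicate 2 (FDR 0.0672) or without KO FoxP3-CD25- replicate 2 (FDR 0.0825), which left 1 member past the threshold in each of these fits. Satb1 had a log2 change of -0.43 (SE 0.15, FDR 0.163), with KO values of 598 and 534 CPM against 841 and 682 CPM that do not overlap. The same held for 46.5% of all genes tested in this comparison.

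With the mouse as a block, 7 members passed in KO mice, against 12% of all genes. Satb1 was then among them (log2 change -0.42, FDR 0.00515), as were Smarca2, Ezh2 and Dnmt1 on the lower side in FoxP3+CD25+ cells and Dnmt3a on the higher. Smarca2 was at 206 and 201 CPM in KO FoxP3+CD25+ against 264 and 255 CPM in KO FoxP3-CD25- libraries. Its log2 change was -0.35 in KO mice and -0.37 in WT mice, each with an SE of 0.07 in this fit.

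The KO FoxP3+CD25- cells, which express the Foxp3 reporter without surface CD25, were compared with both other KO populations, and these comparisons share their libraries. Against KO FoxP3-CD25- cells, 1 member passed, against 1.67% of all genes. Ezh2, a catalytic subunit of Polycomb repressive complex 2, was at 44.6 and 43.3 CPM in FoxP3+CD25- and at 85.4 and 78.1 CPM in FoxP3-CD25- libraries. It fell by 0.89 on the log2 scale (SE 0.11, FDR 0.00277 by edgeR), and did not pass without KO FoxP3+CD25- replicate 2 (log2 change -0.87, FDR 0.0590). Its partners Eed and Suz12 had log2 changes of 0.01 and -0.07, and its paralogue Ezh1 had one of -0.06.

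Satb1 was higher in both KO FoxP3+CD25- libraries (1186 and 993 CPM) than in both KO FoxP3-CD25- libraries, with a log2 change of 0.52 (SE 0.15) at an FDR of 0.160 by edgeR. With the mouse as a block its FDR was 0.00341, and with no filter on low counts 0.0268. Under the block 4 members passed, against 5.7% of all genes: Ezh2 lower, and Satb1, Crebbp and Kmt2c higher. Crebbp is an acetyltransferase that acts at enhancers and Kmt2c a methyltransferase that marks them.

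Against KO FoxP3+CD25+ cells, 5 members passed, against 7.01% of all genes. Satb1 rose by a log2 change of 0.95 (SE 0.15, FDR 0.00377 by edgeR), Tet1 by 0.82 (SE 0.15, FDR 0.00743) and Smarca2 by 0.48 (SE 0.11, FDR 0.0239). In FoxP3+CD25- libraries Tet1 was at 42.5 and 52.8 CPM and Smarca2 at 289 and 276 CPM, near or above their levels in KO FoxP3-CD25- libraries, where Tet1 was at 56.7 and 52.8 CPM and Smarca2 at 264 and 255 CPM. Hdac9 fell by 3.62 (SE 0.48, FDR 0.0012), from 45 and 84 counts to 6 and 5 counts, or 0.970 and 0.547 CPM. Ezh2 fell by 0.55 (SE 0.11, FDR 0.0105), from 66.5 and 62.5 CPM.

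Some of these calls rested on single libraries. Without KO FoxP3+CD25+ replicate 1 or without KO FoxP3+CD25- replicate 2 only 2 members passed, Satb1 and Hdac9, and without KO FoxP3+CD25- replicate 1 there were 3, with Tet1. Smarca2 did not pass without any 1 of the 4 libraries compared (FDR 0.087 to 0.164). With the mouse as a block 15 members passed, against 15.1% of all genes. The 10 added were Arid1a, Arid2, Kmt2c, Tet3 and Dnmt1, higher in FoxP3+CD25- cells, and Smarcb1, Hdac1, Hdac7, Dnmt3a and Uhrf1, lower. Dnmt1 and Dnmt3a again lay on opposite sides (log2 changes 0.41 and -0.36 in this fit).

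**Figure D3:**
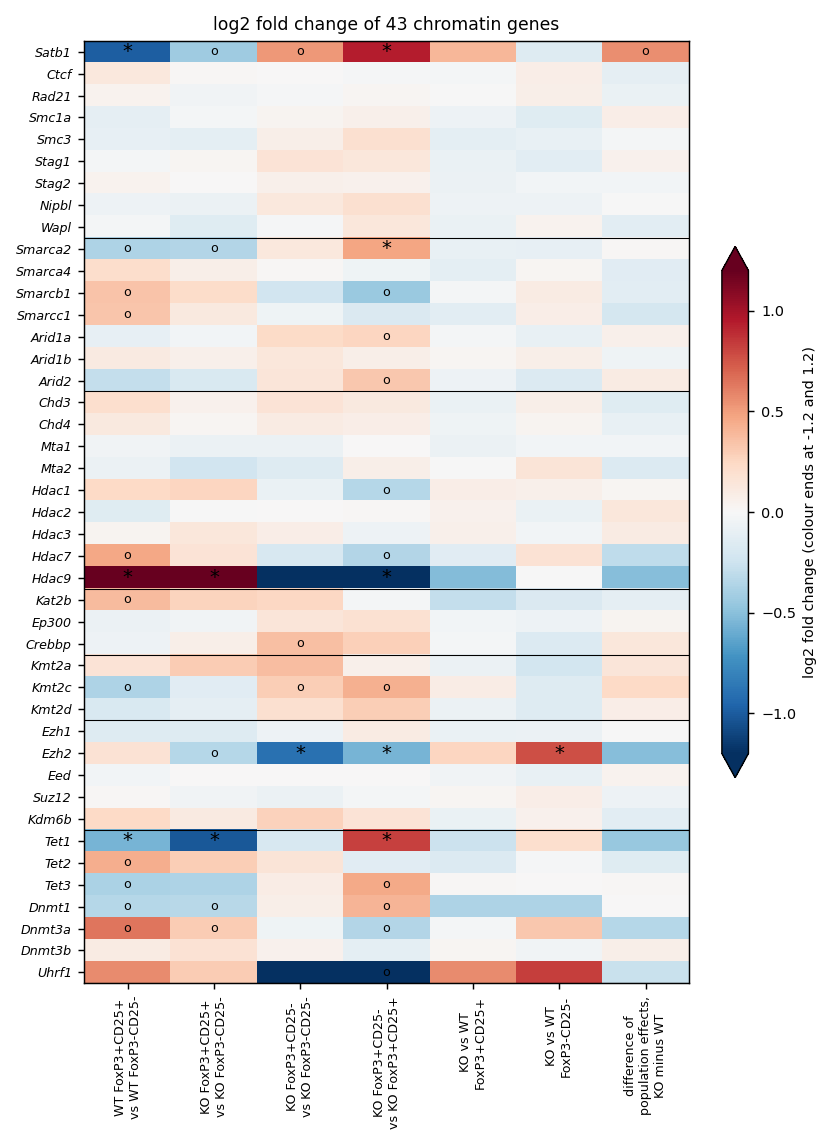
log2 change of the 43 members (rows, by role) in 7 comparisons (columns), from -1.2 (blue) to 1.2 (red), with larger values at the end colours. A star marks FDR below 0.05 in the fit without a block and a circle FDR below 0.05 only with the mouse as a block, which was run for the 4 comparisons within a genotype and the difference of population effects.

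Whether these genes differed between genotypes was asked by comparing KO with WT cells of the same population. The fit used here has no term for the mouse, so its shared estimate of the spread treats libraries of 1 mouse as independent. In FoxP3+CD25+ cells 0 of the 43 members passed FDR 0.05 in edgeR, against 0.00725% of all genes, and 0 passed in DESeq2. At an unadjusted p below 0.05 edgeR gave 3 members, beside 592 of all genes. These were Dnmt1 (log2 change -0.37, 149 and 121 CPM in KO against 179 and 170 CPM in WT), Satb1 (0.40, 95% interval 0.06 to 0.74) and Ezh2 (0.26, 66.5 and 62.5 CPM in KO against 54.6 and 53.2 CPM in WT), each at an FDR of 0.9999. For 41 of the 43 members, all but Hdac9 and Uhrf1, the 95% interval lay within a log2 change of 1 either way.

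**Figure D4:**
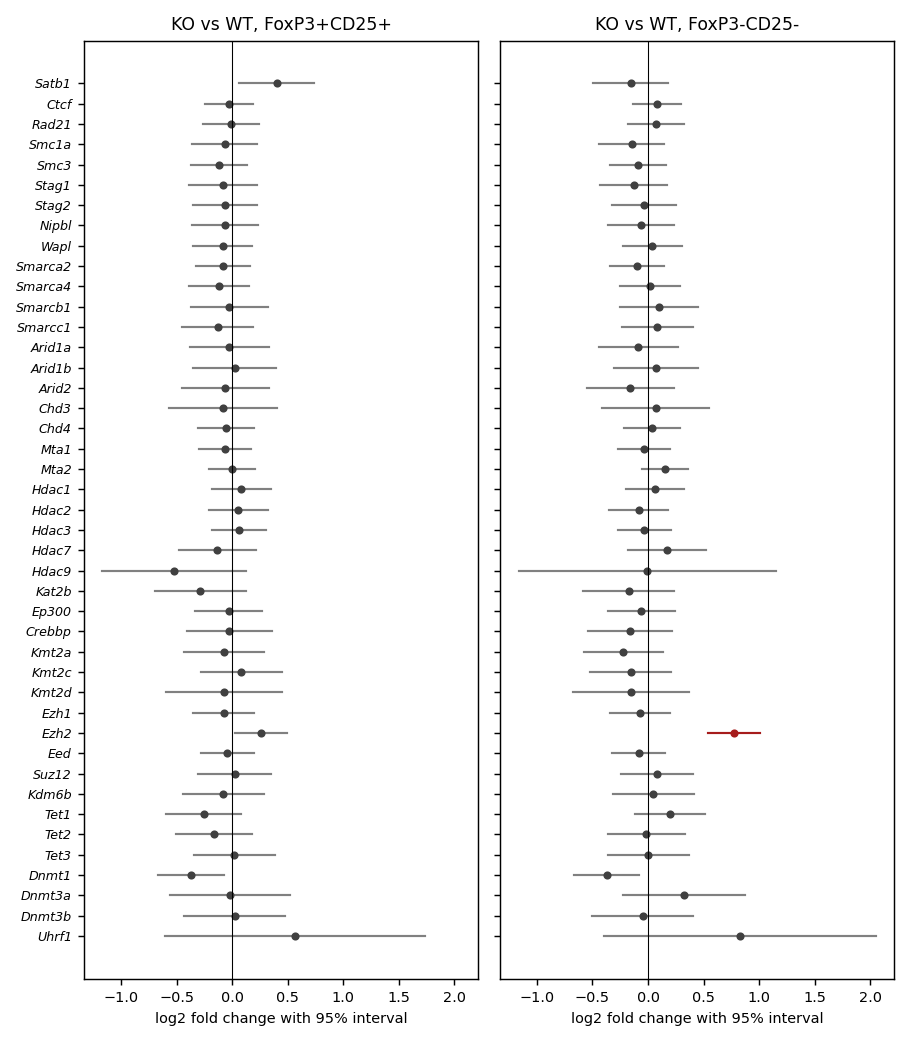
log2 change of each member between KO and WT, with its 95% interval, in FoxP3+CD25+ cells (left) and FoxP3-CD25- cells (right). Intervals of nearly all members cross 0, and Ezh2 in FoxP3-CD25- cells (0.77, red) is the one past FDR 0.05.

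In FoxP3-CD25- cells 1 member passed, against 0.145% of all genes. Ezh2 was at 85.4 and 78.1 CPM in KO and at 47.1 and 48.6 CPM in WT libraries (516 and 593 counts against 568 and 471). The groups did not overlap, as for 38.3% of all genes tested, and its log2 change was 0.77 (SE 0.11, 95% interval 0.54 to 1.01, FDR 0.0238 by edgeR). DESeq2 called it too (FDR 0.000755), and its FDR was 0.0186 with a term of its own for WT replicate 1. It stayed between 0.716 and 0.835 when any 1 of the 10 libraries was left out, but its FDR then ran from 0.0158 to 0.248 and was below 0.05 in 2 of the 10 fits. It was above 0.05 without any 1 of the 6 KO libraries or of the 2 WT FoxP3-CD25- libraries. The ratio of Ezh2 to Ezh1 per kb was 0.913 and 0.690 in KO FoxP3-CD25- libraries, against 0.458 and 0.422 in WT FoxP3-CD25- libraries.

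The libraries high in Ezh2 were also high in other genes. The summed level of 6 memory or effector genes (Cd44, Ifng, Cxcr3, Itgb1, Ccl5 and Tbx21) was 1054 and 1484 CPM in KO FoxP3-CD25- libraries, 853 and 469 CPM in WT FoxP3-CD25- libraries and 184 and 153 CPM in KO FoxP3+CD25- libraries. The summed level of 8 proliferation genes, Mki67 and Top2a among them, was 328 and 218 CPM, 206 and 177 CPM, and 199 and 164 CPM in the same order. Neither list ranked all 10 libraries as Ezh2 did: WT FoxP3+CD25+ replicate 1 held 927 CPM of the memory genes at 54.6 CPM of Ezh2, and KO FoxP3+CD25+ replicate 2 held 190 CPM of the proliferation genes at 62.5 CPM of Ezh2. Their part in the Ezh2 result was not tested.

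**Figure D5:**
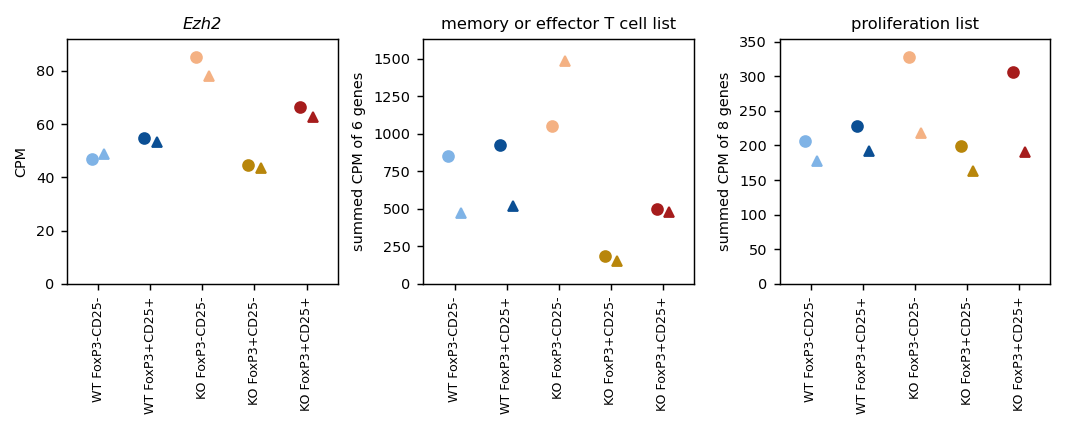
Ezh2 (CPM), the summed CPM of 6 memory or effector genes and the summed CPM of 8 proliferation genes in each library (circle for replicate 1, triangle for replicate 2). KO FoxP3-CD25- libraries are the highest for Ezh2 and for the memory genes, and KO FoxP3+CD25- libraries the lowest for both.

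Other members in FoxP3-CD25- cells stayed below the threshold. Satb1 had a log2 change of -0.16 (FDR 0.927), and Dnmt1 of -0.37 (171 ± 21.6 CPM in KO, 221 ± 1.72 CPM in WT, SD, n = 2) at an FDR of 0.458. The Dnmt1 value was thus -0.37 in both populations, and it passed in neither. Uhrf1 had a log2 change of 0.83, larger than that of Ezh2 but with an SE of 0.55, and KO values of 18.5 and 6.85 CPM that lie on both sides of the WT values of 6.88 and 7.02 CPM.

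Whether the Treg pattern itself differed between genotypes was tested as the difference of the FoxP3+CD25+ against FoxP3-CD25- effects, KO minus WT. None of the 43 members passed in edgeR or DESeq2, as 0% of all genes did in edgeR, and edgeR's unadjusted p was below 0.05 for 2 members, beside 685 of all genes. These were Ezh2 (-0.51, SE 0.15, FDR 0.717) and Satb1 (0.56, SE 0.22, FDR 0.929), and the next was Tet1 (-0.46, SE 0.21). Satb1 was thus 0.504 times as high in WT FoxP3+CD25+ as in WT FoxP3-CD25- cells and 0.743 times in KO cells. With the mouse as a block, a fit added after seeing the data, Satb1 was the 1 member past the threshold (0.57, SE 0.11, FDR 0.045), against 1.07% of all genes.

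With the 5 genes above left out, genes of the loop machinery had the narrowest range of log2 changes of the 7 roles. Leaving out the genes that passed takes the large changes away from their roles. The roles also differ in number of genes and in depth, so this order is only a description. Of the 9 organisers, the 8 other than Satb1 (Ctcf, Rad21, Smc1a, Smc3, Stag1, Stag2, Nipbl, which loads cohesin, and Wapl) gave log2 changes from -0.15 to 0.19 over the 6 comparisons of 2 groups, with 95% intervals inside -0.44 to 0.49. Of the 5 Polycomb genes, the 4 other than Ezh2 ran from -0.15 to 0.27. The 8 NuRD subunits and deacetylases other than Hdac9 ran from -0.35 to 0.46, both ends being Hdac7, which was at 358 and 260 CPM in WT FoxP3+CD25+ and at 232 and 210 CPM in KO FoxP3+CD25- libraries.

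Of the 7 SWI/SNF genes, the 6 other than Smarca2 ran from -0.45 to 0.34, both ends being Smarcb1. Smarca2 and Smarca4 are alternative ATPases of this complex. The ratio of Smarca2 to Smarca4 per kb was 0.321 to 0.349 in the 4 FoxP3+CD25+ libraries and 0.439 to 0.5 in the other 6. This pair was named with its values already seen, and the share of all gene pairs that split the libraries in this way was not computed. The 3 acetyltransferases ran from -0.29 to 0.38, both ends being Kat2b, and the 3 MLL-type methyltransferases from -0.37 to 0.43, both ends being Kmt2c. Of the 7 DNA methylation genes, the 6 other than Tet1 had the widest range, from -1.59 to 0.83, both ends being Uhrf1.

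A wider list of 125 other chromatin genes, of which 117 could be tested, was read from the same fit. In WT mice 4 were higher and 1 was lower in FoxP3+CD25+ than in FoxP3-CD25- cells (4.27% of those tested, against 10.9% of all genes). The higher ones were Kdm2b (log2 change 0.96, SE 0.16, FDR 0.00295), Zbtb38 (0.77), Hdac6 (0.76) and Phc3 (0.56). Kdm2b and Phc3 belong to forms of Polycomb repressive complex 1. In KO mice 3 were higher (Phc3, Kdm2b and Zbtb38) and 1 was lower (3.42%, against 6.34% of all genes).

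Between KO FoxP3+CD25- and KO FoxP3-CD25- cells 0 of the 117 passed by edgeR, against 1.67% of all genes. At an unadjusted p below 0.05 there were 13, beside 1379 of all 13796 genes, and the lowest FDR was that of Nsd2, a histone methyltransferase (0.0543). Between KO FoxP3+CD25- and KO FoxP3+CD25+ cells 5 were higher (4.27%, against 7.01% of all genes), among them Phf1 (0.46), Kdm7a (0.45), Suv39h1 (0.66) and Bcl7a (0.58). Between KO and WT cells 0 passed by edgeR in either population, against 0.00725% and 0.145% of all genes. At an unadjusted p below 0.05 there were 2 in FoxP3+CD25+ cells, beside 592 of all genes, and 7 among non-Tregs, beside 1106. Nsd2 had the lowest p among them in FoxP3-CD25- cells, at 95.7 CPM in KO against 63.6 CPM in WT (log2 change 0.59, SE 0.19, FDR 0.382).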

How the data were processed

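RNA of sorted spleen CD4+ T cells was sequenced in 10 libraries, 2 per group. Per the labels, reads were aligned with HISAT2 (version 2.1.0) and counted with HTSeq (version 0.11.1) on mm10 (GRCm38). The library kit named there does not mark strand, and the strand setting of HTSeq is not given in the sources used here. The authors deposited raw counts per gene symbol, neither normalized nor filtered, and HTSeq's tallies of unassigned reads were left out.

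The 10 libraries were fitted together, with each group given its own mean, in edgeR (version 4.0.16; R version 4.3.3, limma version 3.58.1). Genes were kept with filterByExpr (minimum count 10), which left 13796. TMM factors ran from 0.975 to 1.03. The bias-adjusted quasi-likelihood F-test was two-sided, with Benjamini-Hochberg adjustment over all genes tested at FDR 0.05. CPM use TMM factors. Levels between genes are CPM per kb of exon (GENCODE M21, exons of all transcripts of a gene merged), and promoters are those of RefSeq (GRCm38.p6). Exons of Satb1, Smarca2 and Ezh2 overlap other genes annotated in GENCODE M21 in 1.49%, 0.280% and 2.61% of their bases, whose reads cannot be told apart. These genes lie on the opposite strand, except that Satb1 also overlaps a gene on its own strand.

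The members and gene lists were chosen with earlier results of these data known. Every member past the threshold was named, Satb1 in every comparison, and where none passed the 3 of lowest p. The highest and lowest member per role were named by level, and of the wider list up to 5 genes per comparison, of which some results are not reported here. Members named only for the fit with a block, for their ratio to a paralogue or for their range were chosen after their values were seen.

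Equal replicate numbers within a genotype were read as the same mouse. Over all genes their deviations from the group means correlated at 0.303 in WT and at 0.421, 0.433 and 0.445 in KO mice, against -0.0114 to 0.114 between genotypes, where a number means nothing. Within a genotype the fit with the mouse as a block is therefore given beside the main one. The steps were tested on simulated data. Alternatives were DESeq2 (version 1.42.0), other filters (no filter, or CPM above 1), factors, edgeR methods and subsets, blocks, and each library left out. Figures used Python (version 3.11.15) and matplotlib (version 3.10.9).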

Additional observations from a re-analysis of the deposited data

How the results depend on the processing

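Across 134 alternative counts of members past the threshold, 112 stayed within 1.5 times the count reported and 22 did not. The 112 include counts of 0 beside a reported 0, for KO against WT FoxP3+CD25+ cells and for the difference of effects. Of the alternative values of single named members, 372 kept their direction and side of the threshold, 26 lost it, 4 gained it and 0 changed direction. Named members include some that did not pass in the reported fit, such as Satb1 between KO and WT cells, so the 372 are not all calls that held. Entering the mouse as a block gave 13 members in place of 3 for WT FoxP3+CD25+ against FoxP3-CD25- cells, 7 in place of 2 for the same pair in KO mice, 4 in place of 1 for KO FoxP3+CD25- against FoxP3-CD25- cells, 15 in place of 5 against KO FoxP3+CD25+ cells, and 1 in place of 0 for the difference of population effects, the last being added after seeing the data. A block for the replicate number alone, which is not shared by mice of different genotype, gave 10, 3, 1 and 8 in the first 4 and changed no other count. Without a filter on low counts, 2 members passed in place of 1 between KO FoxP3+CD25- and FoxP3-CD25- cells. DESeq2 called 2 members in place of 3 in the WT comparison and 6 in place of 5 (Uhrf1 added) between KO FoxP3+CD25- and FoxP3+CD25+ cells.

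Leaving out 1 library at a time gave 2 to 4 members in WT mice, 1 to 3 for the same pair in KO mice, 0 to 1 for KO FoxP3+CD25- against FoxP3-CD25- cells, 2 to 5 against KO FoxP3+CD25+ cells, 0 to 1 for KO against WT FoxP3-CD25- cells, and 0 to 0 for KO against WT FoxP3+CD25+ cells and for the difference of effects. With 1 library left in a group, its spread was taken to be that of the others. Over all genes, KO against WT FoxP3-CD25- cells gave 20 calls by edgeR, 103 by DESeq2 and 140 with a term for WT replicate 1. Depth limits Hdac9 most, with 5 to 20 counts in each library outside FoxP3+CD25+ cells.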

Other observations

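Most members were higher in KO mouse 1 than in KO mouse 2 whatever the population. In 35 of the 43 genes (81.4%) replicate 1 was above replicate 2 in all 3 KO populations, and in 3 genes (6.98%) it was below in all 3. Over all 13796 genes tested these shares were 25% and 26.2%. The median log2 ratio of replicate 1 to replicate 2 was 0.22 for the members in KO mice, beside -0.01 for all genes. In WT mice replicate 1 was above replicate 2 in both populations for 22 of the 43 genes (51.2%), beside 28.5% of all genes. The members have long transcripts, with a median of 7832 exon bases, beside 3928.5 over the 13346 genes with a length. The share of all genes with KO replicate 1 above replicate 2 throughout also moved with length, from 17.5% of genes with up to 2 kb of exon to 41.8% of those over 10 kb, where it held for 14 of 16 members. In the class of 6 to 10 kb it was 31.9% of all genes and 12 of 13 members. The part of length, RNA quality or library in this difference was not tested. It is a difference between 2 mice of 1 genotype.

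Uhrf1, which is highest in dividing cells, was split by mouse in the same way. It was at 23.5 and 18.5 CPM in KO replicate 1 and at 7.60 and 6.85 CPM in KO replicate 2 for FoxP3+CD25+ and FoxP3-CD25- cells, while the summed proliferation genes were at 306 and 328 CPM in replicate 1 and at 190 and 218 CPM in replicate 2. KO FoxP3+CD25- cells held the least Uhrf1, at 6.14 and 4.27 CPM.

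Dnmt1 was lower in KO than in WT libraries of both populations (149 and 121 against 179 and 170 CPM, and 186 and 155 against 222 and 219 CPM), without overlap and with a log2 fold change of -0.37 in each. Neither passed the adjustment over all genes by edgeR (FDR 0.9999 and 0.458), and both comparisons rest on the same 4 mice. Of all 13796 genes tested, 27.7% did not overlap between KO and WT FoxP3+CD25+ libraries, and 38.3% between KO and WT FoxP3-CD25- libraries.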
